A study of Eptesicus fuscus and Canis lupus familiaris and Equus caballus with 4 samples.

Results

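The hairpin described here lies on the minus strand of horse chromosome 22 and has a counterpart on the minus strand of a contig of the big brown bat, Eptesicus fuscus. Its members were chosen by position: all rows of the horse list whose hairpin overlaps 22, 49647210 to 49647332, and all rows of the bat list that overlap ALEH01128867.1, 12424 to 12568. Both windows were selected on the measured reads of earlier work with these lists, so the read values below are a description and no test was run on them. The rule found 5 rows out of 1453 in the 3 lists of the series. In the horse 3 of 439 rows overlapped the window, namely Candidate_171, Candidate_184 and Candidate_172, of which the rule names the first pair. In the bat 2 of 762 rows did, Candidate_326 and Candidate_327. The nearest horse row outside the window, Candidate_174 with 1 read, lay 200084 bases away, and the bat contig held 0 further rows.

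The study sequenced small RNA from adult testes of dog, horse and bat, as 50 bp single-end reads of the small RNA fraction. The groups used here are 1 adult horse library and 1 adult bat library, with 1 adult dog library for comparison, and no label names a treatment. A library from a further bat was not analysed here. With 1 library per species there is no replicate error, differences between species cannot be told apart from differences between these libraries, and no p-value is given. The horse list summed to 61054 reads, the bat list to 89091 and the dog list to 63429.

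A miRNA gene is transcribed as a hairpin, whose stem is cut out and then freed of its loop by the enzymes Drosha and Dicer. This leaves a short duplex with 1 strand from the 5p arm, before the loop, and 1 from the 3p arm, after it. Usually the strand from 1 arm is loaded into an Argonaute protein and kept, and the other is mostly degraded. The loaded strand finds its targets chiefly through its seed, bases 2 to 8 counted from its 5′ end, so a change of arm or of a seed base changes which messenger RNAs can be paired. The choice of strand is known to depend in part on how tightly each end of the duplex is paired. In testis, miRNAs act during germ cell development.

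The 4 arm sequences are shown first because the comparison turns on which of them is read and where they differ. They are printed 5′ to 3′ as DNA, as the deposited lists give them, with the seed in capitals. The sources used here do not give the builds of the horse and bat coordinates, and no gene annotation was used, so whether the hairpin lies in a gene, an exon or an intron was not analysed here.

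Horse 5p, Candidate_171, 22, 49647279 to 49647302: aGGACTGTccaacctgagaatggt

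Bat 5p, Candidate_327, ALEH01128867.1, 12502 to 12524: aGGACTGAccaacctgagaatgg

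Horse 3p, Candidate_184, 22, 49647240 to 49647264: gTTCTCAGgttcgtcagcccatgag

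Bat 3p, Candidate_326, ALEH01128867.1, 12466 to 12489: aATCTCAGgttcgtcagcctgtga

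From general knowledge, the horse 5p sequence corresponds to the miRNA called miR-1388 in other vertebrates. No table of known miRNAs was used here, so this name was not checked and is not used further.

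The hairpins themselves are shown because they place both arms and the loop between them. The 5p and 3p sequences are in capitals, and each hairpin is printed 5′ to 3′ on the minus strand.

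Horse hairpin, 22, 49647210 to 49647332: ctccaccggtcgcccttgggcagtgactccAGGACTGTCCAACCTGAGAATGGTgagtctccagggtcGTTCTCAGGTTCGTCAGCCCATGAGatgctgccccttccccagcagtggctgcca

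Bat hairpin, ALEH01128867.1, 12424 to 12568: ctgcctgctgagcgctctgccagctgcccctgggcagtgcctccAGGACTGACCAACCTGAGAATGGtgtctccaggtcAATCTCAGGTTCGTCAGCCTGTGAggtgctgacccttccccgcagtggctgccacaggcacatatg

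The leading arm differed between the libraries. In the horse library the 5p row, Candidate_171, had 5727 reads and the 3p row, Candidate_184, had 1898. The 5p arm thus took 75.1% of the 7625 horse reads on both arms (exact Clopper-Pearson 95% interval 74.1 to 76.1), 3.02 times the 3p reads. In the bat library the order was the other way round. The bat 3p row, Candidate_326, had 104 reads and the 5p row, Candidate_327, had 24. There the 5p arm took 18.8% of 128 reads (12.4 to 26.6), and the 3p arm had 4.33 times the 5p reads. The 2 intervals do not overlap, but they cover counting error only. They treat reads as independent molecules, which PCR reads without molecular identifiers are not.

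Distinct read sequences gave another picture of the horse arms. A row's distinct sequences are the different reads, with shifted ends or changed bases, that the program gathered there. The horse 5p row was built from 56 distinct sequences and the horse 3p row from 81, so the 5p arm held 40.9% of the distinct sequences (32.6 to 49.6) although it held most of the reads. In the bat the 5p row had 8 distinct sequences and the 3p row 20, a 5p share of 28.6% (13.2 to 48.7). By distinct sequences the 3p arm was therefore the larger in both libraries. The intervals for distinct sequences treat them as independent draws, which variants of the same arm are not, so they measure no replicate error. Each horse 5p sequence was read 102 times on average and each horse 3p sequence 23.4 times, against 3 times on the bat 5p arm and 5.2 times on the bat 3p arm. Among horse rows with at least 10 reads the median was 6.83 reads per distinct sequence, and Candidate_171 was number 4 and Candidate_184 number 17 of 124. The bat median was 4.88 over 255 such rows, so the bat arms lay on either side of it. The lists do not give the reads of each distinct sequence, so which read ends made up these numbers was not analysed here.

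**Figure D1:**
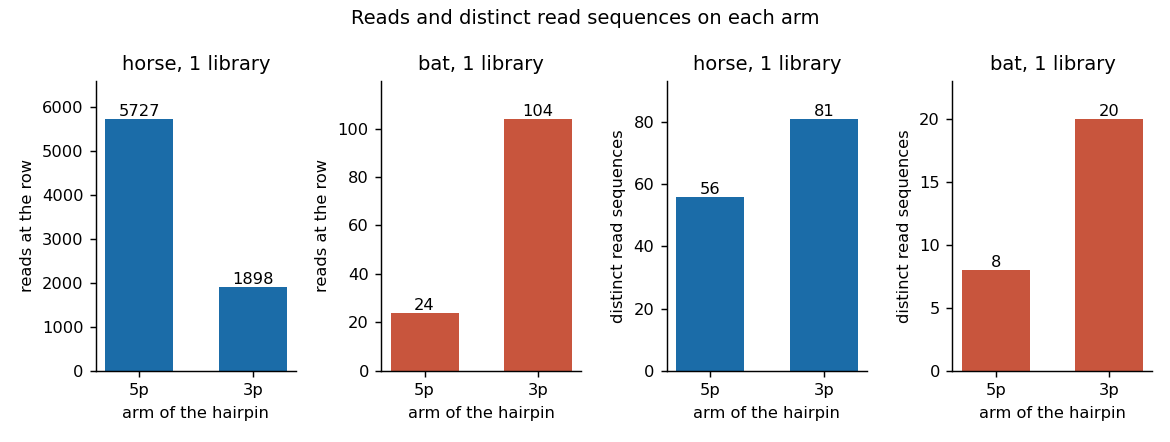
Bars give the reads (left pair of panels) and the distinct read sequences (right pair) listed on the 5p and 3p arms in the horse and bat libraries, each panel on its own axis from 0. The 5p bar is the taller only for horse reads, 5727 against 1898; in the other 3 panels the 3p bar is the taller.

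The count by distinct sequences seldom went against the count by reads in the horse and bat lists. It did so at a larger share of the few such loci in the dog list, but several of these dog loci had identical counts. Rows were merged into loci where their hairpins overlapped on 1 strand, and a locus counted as listed on both arms where 2 of its mature sequences did not overlap. This held for 45 of 391 horse loci (11.5%), 87 of 669 bat loci (13%) and 19 of 232 dog loci (8.19%). The arm with more reads had fewer distinct sequences at 1 of the 45 horse loci (2.22%), which was the locus described here, and at 2 of the 87 bat loci (2.3%), of which it was none. In the dog list, which held no row of this locus, it was so at 5 of 19 loci (26.3%). These 5 were not separate cases: some had 365 reads on the 5p and 477 on the 3p arm, and all the others 186 and 1546. Loci with identical counts on both arms also occurred in the horse and bat lists, and each was counted. An arm cannot have more distinct sequences than reads, so at loci with few reads on 1 arm the counts could hardly disagree. At least 10 reads at the less read row were found at 12 of the 45 horse, 27 of the 87 bat and 12 of the 19 dog loci. The loci where the counts disagreed all met that minimum, so over those loci alone the shares are higher. Since the locus was chosen with its reads known, these shares describe the lists.

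**Figure D2:**
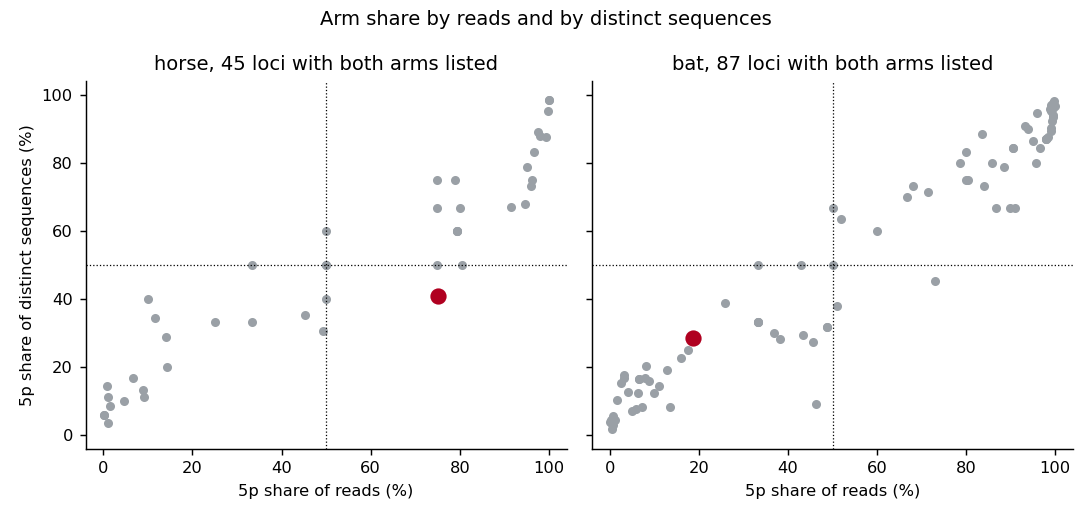
Each point is a locus listed on both arms, placed by the 5p share of its reads (horizontal axis, percent) and the 5p share of its distinct sequences (vertical axis, percent), with the locus described here in red and dotted lines at 50%. The red horse point, at 75.1% of reads and 40.9% of distinct sequences, is the horse point to the right of one line and below the other; the red bat point, at 18.8% and 28.6%, lies on the 3p side of both.

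The arms at this locus were less unequal than at most loci listed on both. The leading arm took a median of 90% of the reads at such horse loci and 91.9% at such bat loci. The horse locus, at 75.1%, was more even than all but 12 of the 45 horse loci, and the bat locus, at 81.2%, was more even than all but 26 of the 87. Many of these loci had only a few reads on 1 arm. With at least 10 reads at the less read row, the medians were 87.2% over 12 horse loci and 83.9% over 27 bat loci. Of those, 2 horse and 10 bat loci were more even than the locus described here, so the bat locus lay close to the bat median. Either arm could lead: the 5p row led at 22 horse loci and the 3p row at 19, with 4 ties, and in the bat the 5p row led at 42, the 3p row at 43, with 2 ties. Arms were assigned here by their order along the strand, without a fold of each locus.

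Loci listed on both arms in both species gave the closest comparison for the change of leading arm. There were 7 such horse and bat pairs, in which at least 1 mature sequence matched, that is, differed at no more than 2 of 18 bases with starts no more than 2 bases apart. The leading arm was opposite in 1 of the 7 (14.3%), the pair described here. It was the same in 5, of which 2 were led by the 5p row and 3 by the 3p row in both species. In the remaining pair, Candidate_139/Candidate_138 on horse chromosome 24, the bat rows were tied at 2 reads each, and the horse 3p sequence of that pair matched a bat row at another position of the contig. Among the 5 pairs with the same leading arm, Candidate_146/Candidate_147 had the most even arms in the bat. Its 5p share was 97.6% in the horse and 52% in the bat, where the arms had 26 and 24 reads. Of the 3 pairs that matched on both arms, the other 2, Candidate_146/Candidate_147 and Candidate_658/Candidate_606, kept their leading arm. Candidate_658/Candidate_606, on horse chromosome X, had 5p shares of 10% in the horse, with 3 and 27 reads, and 0.658% in the bat. Also on chromosome X, the locus of Candidate_631/Candidate_655, which matched on 1 arm only, had 5p shares of 11.7% in the horse and 8.07% in the bat.

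**Figure D3:**
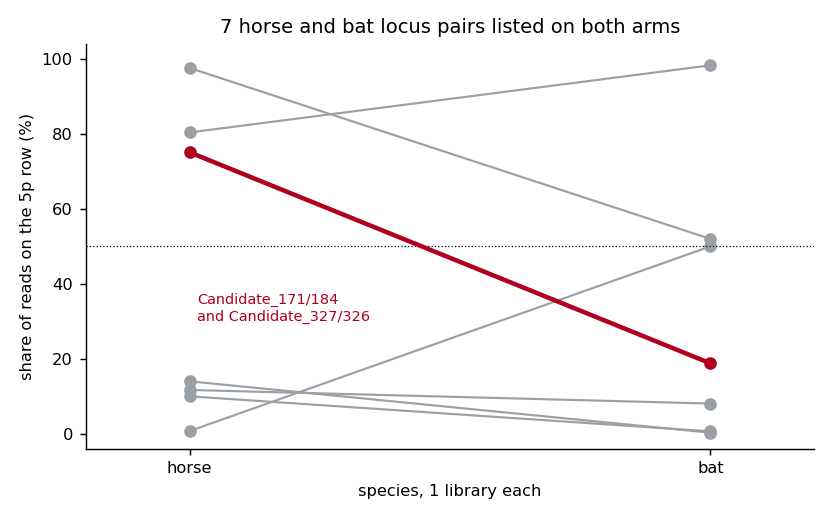
Lines join the 5p share of reads (percent) in the horse and in the bat for the 7 locus pairs listed on both arms, 1 library per species, with the pair described here in red and a dotted line at 50%. The red line crosses from 75.1% to 18.8%; 1 grey line ends on the dotted line and the other 5 stay on their side of it.

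The locus ranked high in the horse list and in the middle of the well-read bat rows. Candidate_171 was number 3 of the horse list by reads, and Candidate_184 number 10. Above Candidate_171 stood Candidate_640 with 11811 reads and Candidate_634 with 7855, both on chromosome X, and the next below it were Candidate_598 and Candidate_616 with 3160 each. Candidate_184 followed Candidate_651 with 3154 reads and Candidate_2 with 2922, and stood before Candidate_654 with 1104 and Candidate_554 with 993. By distinct sequences the order of the arms changed, with Candidate_184 at number 2 and Candidate_171 at number 8 of the horse list.

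In the bat list Candidate_326 was number 110 and Candidate_327 number 186, the latter tied with 3 other rows at 24 reads. Next to Candidate_326 stood Candidate_642 with 107 reads, Candidate_835 with 106, and Candidate_306 and Candidate_311 with 103 each. Next to Candidate_327 stood Candidate_805 with 25 reads and the tied rows Candidate_148, Candidate_395 and Candidate_727. Both bat arms were still far above the median bat row, which had 3 reads. By distinct sequences Candidate_326 was number 107 and Candidate_327 number 183.

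**Figure D4:**
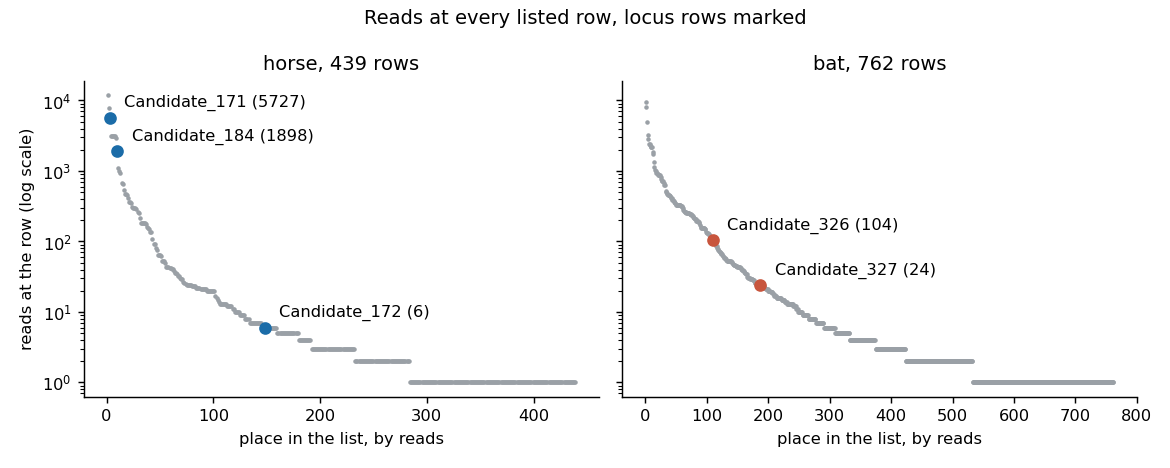
Reads at every row of the horse list (439 rows) and the bat list (762 rows), on a log scale, against the row's place by reads, with the rows of the locus as large labelled points. The 2 horse arms stand at places 3 and 10, while the bat arms stand at 110 and within the tie that begins at 186.

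The arms together took 12.5% of all listed horse reads (12.2 to 12.8) and 0.144% of all listed bat reads (0.120 to 0.171). Against all reads in the authors' analysis, whose total can be bracketed by dividing each count by its rounded deposited fraction, the horse 5p arm made up 1.04 to 1.05% and the horse 3p arm 0.346 to 0.348%. On that scale the bat 5p arm made up 0.0242 to 0.0243% and the bat 3p arm 0.105%. That bracket ran from 545429 to 549348 reads in the horse library and from 98889 to 99340 in the bat library. The sources used here do not say whether it was defined alike in both species, so the size of the difference in level between the species was not estimated. The listed reads, 61054 in the horse and 89091 in the bat, were a small part of the bracketed total in the horse and most of it in the bat. Shares and ranks within the lists are therefore not on the same scale in both species.

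The horse and bat sequences began at the same aligned base on both arms. The 5p sequences shared 23 positions and differed at 1 of them. This substitution is T8A, written with the horse base first, its position counted from 1 at the 5′ end of the horse sequence, and then the bat base. It falls on the last base of the seed. The horse 5p sequence ran 1 base further at its 3′ end, with 24 bases against 23.

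The 3p sequences shared 24 positions and differed at 4, namely G1A, T2A, C20T and A21G. Of these T2A falls on the first seed base. With the starts that the program chose, each arm therefore had 1 seed base that differed between the species, and neither seed was shared. Both of these bases lie at an edge of the seed. A 3p start 1 base later, or a 5p start 1 base earlier, would leave them outside it. Other starts were not tried. The 3p sequences had 25 bases in the horse and 24 in the bat. Over the first 18 bases the 3p arms differed at 2, the largest number that the matching rule allows. By that rule 15 of 385 distinct horse sequences (3.9%) had a bat match and 15 of 647 bat sequences (2.32%) had a horse match. Both horse arms were among the 15 and had the most reads of them in the horse. The bat rows they matched were number 10, tied, and number 6 by bat reads over the 15 matches.

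Over the whole hairpin, 105 of 123 aligned columns were identical (85.4%), with 14 substitutions and 4 gap columns. The 5p arm was the most alike, with 23 of 24 columns identical. The 3p arm had 21 of 25 identical (84%) and the stretch between the arms 11 of 14 (78.6%), where all 3 differing columns were gaps. Before the 5p arm 7 of 30 columns were substitutions (76.7% identical), and after the 3p arm 27 of 30 were identical (90%). The arms lay 14 bases apart in the horse and 12 in the bat.

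**Figure D5:**
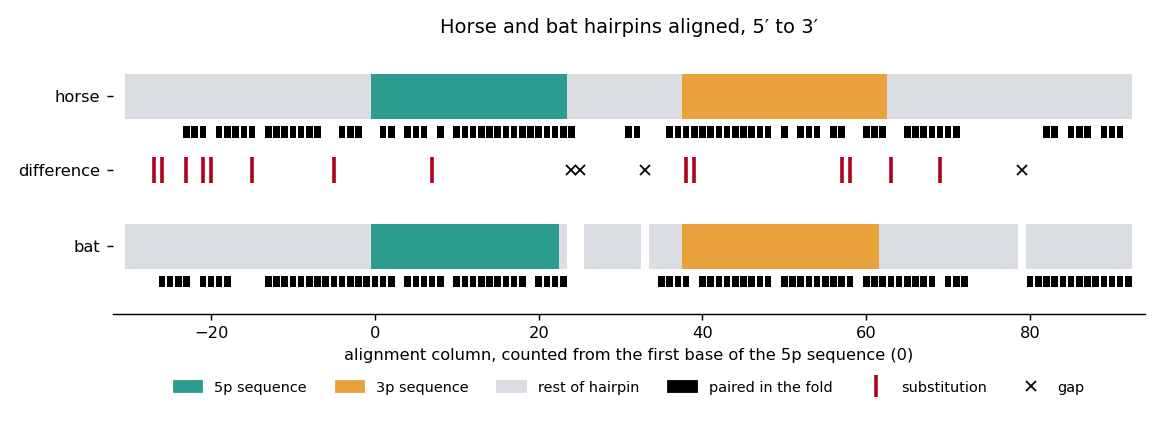
The horse hairpin (top) and the bat hairpin (bottom) are drawn by alignment column from the first base of the 5p sequence, with the 5p and 3p sequences in colour, black marks under bases that are paired in the predicted fold, and the differing columns between them. The 5p sequence holds 1 substitution and the 3p sequence 4, and 3 of the 4 gap columns lie between the arms.

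The predicted folds held both arms opposite each other in each species. In the minimum free energy fold, 20 of 24 bases of the horse 5p sequence and 20 of 25 of the horse 3p sequence were paired, 17 of them with the other arm on each side. In the bat 20 of 23 bases of the 5p and 21 of 24 of the 3p sequence were paired, 18 of them with the other arm. In the bat the 3p sequence ran 4 bases past the partner of the first 5p base. The first horse 5p base had no partner, and counted from the partner of the second base, moved on by 1, the horse 3p sequence also ran 4 bases further. The 5p sequence ran 3 bases past the partner of the first 3p base in the horse and 2 in the bat. Short 3′ overhangs are a known trait of duplexes cut by Drosha and Dicer. The lengths found here rest on predicted folds and on the mature ends that the program chose. Whether they are usual for such duplexes was not tested.

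Pairing at the ends of the duplex differed between the species. Of the first 4 bases, the horse 5p sequence had 2 paired and the horse 3p sequence 4, while the bat sequences had 3 paired on each arm. The unpaired positions were 1, 4, 8 and 10 in the horse 5p sequence, and 4, 10 and 20 in the bat 5p sequence. On the 3p arm they were 12, 14, 18, 21 and 22 in the horse, and 2, 12 and 22 in the bat. At T8A the horse base was unpaired and the bat base paired. At T2A the horse base was paired and the bat base unpaired, and at A21G the reverse held. The base at G1A and at C20T was paired in both. The same arm bases were paired when the hairpins of the 4 arm rows were folded one by one. The hairpin of Candidate_172, which ends before the 3p arm does, folded otherwise, with all 4 first bases of the 5p sequence paired. The part of these pairings in the reads of the arms was not tested.

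The folding energy was -49.0 kcal/mol for the 123 bases of the horse hairpin and -76.2 kcal/mol for the 145 bases of the bat hairpin. Per 100 bases the horse rows stood at -39.8 for Candidate_171 and -43.9 for Candidate_184, beside a horse median of -39.1. The bat rows stood at -53.3 for Candidate_326 and -49.1 for Candidate_327, beside a bat median of -41.4. By this measure Candidate_171 was number 187 of 439 from the most stable, Candidate_184 number 94, and the bat rows numbers 122 and 182 of 762. The fold of Candidate_171 was thus close to the horse median. All 5 rows were predicted by all 5 models of the program, which was true of 207 horse rows and 393 bat rows.

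A further horse row lay directly beside the 5p arm. Candidate_172 had 6 reads in 3 distinct sequences, and its mature sequence, at 22, 49647302 to 49647322, ended on the first base of the 5p sequence. It is shown because it borders the 5p arm, with that 1 shared base in capitals.

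Horse row beside the 5p arm, Candidate_172: cgcccttgggcagtgactccA

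Its reads were 0.079% of the 7631 at the 3 horse rows (exact Clopper-Pearson 95% interval 0.029 to 0.17). Reads that border a miRNA on its hairpin are known as miRNA-offset RNAs, and they are usually much rarer than the miRNA itself. The bat list had 0 rows at this place. With 128 bat reads in all at the locus, a share as small as that in the horse was not detectable at this depth.

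No other row in the 3 lists belonged with the locus by sequence. Of the other 436 horse, 760 bat and 252 dog rows, 0 matched an arm by mature sequence and 0 aligned to its hairpins over 50 bases at 80% identity. Each of the arm sequences was listed at 1 row. The seeds were nearly as isolated: horse Candidate_555, with 1 read at 30, 27701557 to 27701677, had the seed of the horse 5p sequence and no further likeness by these rules. It is shown for that shared seed, in capitals.

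Horse row with the seed of the 5p arm, Candidate_555: tGGACTGTtgagttccatgaggc

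The dog list held 0 rows with any of the 4 seeds. The sources used here do not say whether known miRNAs were removed from the lists, so a locus without a dog row is not thereby absent from the dog genome or from dog testis.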

How the data were processed

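Small RNA from adult testes was sequenced in 1 horse, 1 bat and 1 dog library analysed here. The deposited lists come from a local installation of miRanalyzer, per the deposited description of their columns. The deposited counts are raw whole numbers: how many different read sequences, and how many reads in all, lay at a row. The deposited score says how many of 5 models gave the row. The deposited fraction gives a row's reads relative to the total of the authors' analysis, to 3 decimals. The sources used here do not give trimming, mapping or the horse and bat builds, and the submitters' processing notes name only CanFam3.1. Reads that map to several places and base changes near read ends could alter the counts, and a row's mature sequence is the program's choice.

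The stretch of the arm rows was aligned with Biopython 1.88 (match 1, mismatch -1, gap open -2, gap extension -0.5, end gaps free) and folded with RNAfold 2.7.2. Hairpins were compared with blastn 2.17.0 (word size 7, E-value 0.001). Exact Clopper-Pearson 95% intervals came from scipy 1.17.1. The matching and alignment steps were tested on simulated sequences. The named rows are the locus rows, rows that match them by mature sequence, seed or hairpin, the 2 rows above and below each arm in reads, and the nearest row on the chromosome or contig; other locus pairs listed on both arms were named after their values were seen. Members and lists were chosen with earlier results of these data known. Alternatives were distinct sequences for reads, identical sequences once, other gap costs, single hairpins, seed, exact or hairpin matches, a minimum of 10 reads and, added after seeing the data, inclusion of Candidate_172.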

Additional observations from a re-analysis of the deposited data

Results flagged for a closer look

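The arms of the locus led in opposite directions in the 2 species: the 5p share of reads was 75.1% in the only horse library and 18.8% in the only bat library analysed here. The difference was not tested, and by distinct sequences the 3p arm was the larger in both, with 5p shares of 40.9% and 28.6%.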

How the results depend on the processing

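No paired analysis was possible because each species had 1 library, and for the same reason no library could be left out. With distinct sequences in place of reads the horse 5p share went from 75.1% to 40.9% and the bat share from 18.8% to 28.6%. That put the horse 3p arm ahead on this count. Distinct sequences count kinds of read and not their amount, so this is not another estimate of which arm led by reads. With identical mature sequences once the horse locus took 15.4% of listed reads. The folding energy was -41.7 kcal/mol for the hairpin of Candidate_184, -69.2 for that of Candidate_327 and -73.2 with the stretch of Candidate_172. An identical seed found 1 further horse row, and it raised the horse sequences with a bat match from 15 to 32, against 5 without mismatches. Loci listed on both arms fell from 151 in the 3 lists to 51, of which 12 horse, 27 bat and 12 dog, with at least 10 reads at the less read row; both the horse and the bat locus met that minimum. The cause of these changes was not tested. Of 34 alternatives 21 left the result as it was, within its counting interval or within 1.5 times for counts and ranks; among them were the identity of the hairpins, from 84.7% to 87.4%, and the 1 and 4 differing bases of the arms. Some of the 21 could hardly have changed. Each arm sequence was listed at 1 row, so dividing its reads by such rows altered nothing. The hairpin of Candidate_171 is the whole horse stretch, and Candidate_172 added only 6 reads to the 5p arm. Depth limits the bat arms most, since 24 reads underlie the 5p row.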
